A study of Mus musculus with 6 samples.

Results

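The unfolded protein response is described here through 10 genes, Hspa5, Hsp90b1, Calr, Pdia4, Sdf2l1, Creld2, Manf, Dnajb9, Herpud1 and Xbp1, in macrophages grown from mouse embryonic stem cells. The genes were chosen by name, with earlier results of these data known. All 10 were found among the 55487 genes of the deposited tables, and all 10 were expressed enough to be among the 13821 genes tested. The study holds 3 wild-type and 3 Ts1Cje libraries and asks why Ts1Cje embryos have fewer microglia. The embryonic stem cells came from wild-type or Ts1Cje mice, and both genotypes received the same factors for 12 days (M-CSF, IL-3, SCF, VEGF, activin A, BMP-4 and FGF2), which turn stem cells into primitive macrophages, the earliest macrophages of the embryo and the forerunners of microglia. Ts1Cje is a model of Down syndrome in which a distal piece of chromosome 16 is present in an extra copy, carried at the end of chromosome 12. The labels number the samples by lot. The design text speaks of 3 different cells of each genotype without saying whether these are separate stem cell lines, clones or differentiations, so the p-values cover the spread among these lots and may hold technical spread only.

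Proteins bound for secretion, the cell surface or the lysosome fold in the endoplasmic reticulum (ER). When unfolded proteins build up there, the membrane sensors IRE1 (gene Ern1), PERK (Eif2ak3) and ATF6 start the unfolded protein response. IRE1 splices the messenger RNA of Xbp1, ATF6 is cut free to enter the nucleus, and both resulting transcription factors raise genes of ER chaperones and of ER-associated degradation, while PERK slows translation and favours ATF4. Macrophages rely on this machinery for their lysosomal enzymes, receptors and cytokines. A count per gene does not separate spliced from unspliced Xbp1, so IRE1 activity was not measured here.

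Among the members, the promoters of 5 held an exact copy of an ER stress element, the DNA site through which ATF6 and XBP1 are known to act together with the CCAAT-binding factor NF-Y. The RefSeq promoter table (build GRCm38.p6, the same assembly as mm10) had an entry for 9 of the 10 genes, all but Manf. In the 250 bases before each start, both strands were searched for ERSE (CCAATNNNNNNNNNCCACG), ERSE-II (ATTGGNCCACG) and UPRE (TGACGTGG). ERSE-II begins with the reverse complement of CCAAT, so both elements are built of the same pair of blocks at different spacing. ERSE was found in Hspa5, Calr, Hsp90b1 and Creld2, 4 of 9 members. In the whole table, members included, it was found in 35 of 27025 genes (37 of 32851 promoters, or 0.113%). ERSE-II was found in Herpud1, against 10 of 32851 promoters (0.0304%). UPRE was found in 0 of 9 members and in 0.563% of all promoters. The members were picked by name as genes of this response, and the elements are its known sites. The counts are therefore a description and no test. The matches, with 5 or 9 flanking bases, are each read 5′ to 3′ on the strand that holds the element, to let the shared blocks be compared, and capitals mark the fixed letters of the element.
Hspa5, ERSE: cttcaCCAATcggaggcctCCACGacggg
Calr, ERSE: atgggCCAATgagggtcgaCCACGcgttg
Hsp90b1, distal ERSE: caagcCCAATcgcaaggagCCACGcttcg
Hsp90b1, proximal ERSE: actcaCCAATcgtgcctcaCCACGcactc
Creld2, ERSE: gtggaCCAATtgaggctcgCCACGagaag
Herpud1, ERSE-II: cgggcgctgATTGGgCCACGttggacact

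The shown windows lie at chr2:34772020-34772048 (plus strand, Hspa5), chr8:84847070-84847098 (plus, Calr), chr10:86705633-86705661 (minus, Hsp90b1 distal), chr10:86705528-86705556 (plus, Hsp90b1 proximal), chr15:88819515-88819543 (minus, Creld2) and chr8:94386368-94386396 (plus, Herpud1). The Hspa5 element starts 65 bases before the RefSeq start and falls inside an exon of a longer Hspa5 transcript in GENCODE M21. The other 5 windows overlap no annotated exon. The Hsp90b1 promoter was the only member promoter with a pair of ERSE copies, which face each other on opposite strands. That stretch is shown because it holds both, at chr10:86705533-86705656, 5′ to 3′ on the minus strand on which the gene lies, with the blocks of both elements in capitals.
Hsp90b1 promoter: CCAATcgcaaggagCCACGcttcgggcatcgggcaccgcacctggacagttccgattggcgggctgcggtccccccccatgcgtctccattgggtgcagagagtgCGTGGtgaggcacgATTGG

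A match describes the letters of the promoter and is no measure of binding. Pdia4, Sdf2l1, Dnajb9 and Xbp1 had no exact match in this window. Outside the members, 31 other genes had an ERSE in the table, and 11 of them were tested. Among these were 4 further genes of the same machinery, Canx (calnexin), Pdia6 (a disulfide isomerase), Dnajc3 (an inhibitor of PERK) and Syvn1 (the ubiquitin ligase of ER-associated degradation), which were picked out after the matches were seen.  Of the 11 genes 7 had a positive log2 fold change of Ts1Cje over wild-type, with a median of 0.12, and 0 passed edgeR, the smallest adjusted p being 0.792.

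None of the 10 genes lies in the extra segment. In mm10 the segment runs from beyond Sod1, which ends at 90226329 of chromosome 16, to Zbtb21, which ends at 97962622. Sdf2l1 is on the same chromosome, at 17130138 to 17132383 on the minus strand, 73.1 Mb before Sod1. Dnajb9 is on chromosome 12, at 44205559 to 44210326. The others are at chromosome 2, 34771970 to 34777547 (Hspa5, plus strand), chromosome 10, 86690209 to 86705509 (Hsp90b1, minus), chromosome 8, 84841850 to 84846934 (Calr, minus), chromosome 6, 47796141 to 47813430 (Pdia4, minus), chromosome 15, 88819646 to 88826683 (Creld2, plus), chromosome 9, 106838312 to 106891979 (Manf, minus), chromosome 8, 94386438 to 94395377 (Herpud1, plus) and chromosome 11, 5520659 to 5525893 (Xbp1, plus). Exons of Manf overlap exons of Dcaf1 over 146 bp on the opposite strand, and exons of Hsp90b1 overlap a pseudogene over 415 bp. The strand setting of the counting is not given, so reads there cannot be assigned to either gene.

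Total counts per library were 25484294 to 32658148. The libraries carried macrophage RNA, with summed CPM (counts scaled to the library total and the TMM factor) of 10 macrophage markers at 7994 to 17962 in wild-type and 9302 to 18010 in Ts1Cje. Csf1r, the receptor for M-CSF, ranged from 1066 to 2435 CPM and Spi1, a macrophage transcription factor, from 167 to 242 CPM. Lyz2, the lysozyme of macrophages and the marker with the highest mean, was at 10372, 4470 and 2298 CPM in wild-type and 3249, 6139 and 11565 CPM in Ts1Cje replicates 1 to 3. Summed levels of other cell types were far lower, and the marker highest in TPM is named for each. They were 0.149 to 0.947 CPM for 6 neutrophil genes (S100a8), 0.364 to 7.03 CPM for 6 erythroid genes (Hba-a1), 1.76 to 25.0 CPM for 6 genes of extraembryonic endoderm (Afp), 11.1 to 79.5 CPM for 6 mesenchymal genes (Col1a1), 13.3 to 56.0 CPM for 5 endothelial genes (Kdr) and 34.1 to 186 CPM for 6 mast cell and megakaryocyte genes (Pf4). Nearly all of the mast cell and megakaryocyte sum was Pf4 (34.0 to 185 CPM), with Itga2b at 0 to 1.65 CPM and Cpa3 at 0 to 0.526 CPM. In these lists Alb, Amn, Emcn, Mcpt8 and Ms4a2 were among the genes at 0 in all 6 libraries. For the remaining lists the genotypes did not overlap. The 6 B and plasma cell genes (Ighm) summed to 34.8 to 133 CPM in wild-type and 12.1 to 22.6 CPM in Ts1Cje, with the plasma cell gene Mzb1 at 0 in all 6 libraries. The 6 pluripotency genes (Dppa5a) summed to 0 to 0.150 CPM in wild-type and 0.447 to 0.750 CPM in Ts1Cje, with Esrrb at 0 in all 6. These values are near the floor. Of the 6 genes 0 had enough counts to be tested, and Dppa5a had 30 counts over all libraries. The part of these levels in the results was not tested. Wild-type replicate 1 stood apart on the first principal component, at -88.2 against -18.7 to 38.7 in the other 5 libraries.

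The levels of the 10 genes spanned from Hspa5, the most abundant by mean, down to Herpud1. In TPM, which is scaled by gene length and can be compared between genes, they held 0.268% to 0.502% of all transcripts of a library. Hspa5 encodes BiP, the Hsp70 chaperone of the ER lumen, which also keeps the sensors inactive. It was the highest, at 1059, 1572 and 1755 TPM in wild-type and 1882, 1768 and 1273 TPM in Ts1Cje replicates 1 to 3, rank 55 of all genes by mean TPM. Calr, calreticulin, a lectin chaperone that binds calcium, followed at a mean of 898 ± 295 TPM (SD, n = 6), and Hsp90b1, or GRP94, the Hsp90 of the ER, at 616 ± 134 TPM. The ranges over libraries overlapped for Hspa5 and Calr and for Calr and Hsp90b1, but the order Hspa5, Calr, Hsp90b1 held in 6 of 6 libraries.

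Sdf2l1, a partner of BiP, averaged 297 ± 90.6 TPM and Pdia4, a disulfide isomerase, 257 ± 83.7 TPM (SD, n = 6). Sdf2l1 was above Pdia4 in 4 of 6 libraries, so these neighbours did not differ beyond their spread. Xbp1, the transcription factor, averaged 197 ± 35.4 TPM, above Creld2 (105 ± 27.0 TPM), a disulfide isomerase-like factor, in 6 of 6 libraries. Manf, a secreted factor that binds BiP, averaged 69.4 ± 20.0 TPM and Dnajb9, the co-chaperone ERdj4, 61.0 ± 9.39 TPM, with Manf above Dnajb9 in only 3 of 6 libraries. Herpud1, a membrane component of ER-associated degradation, had the lowest mean, 37.4 ± 19.6 TPM, and was the lowest member in every library but wild-type replicate 2, where its 77.2 TPM lay above the 65.7 TPM of Manf.

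**Figure D1:**
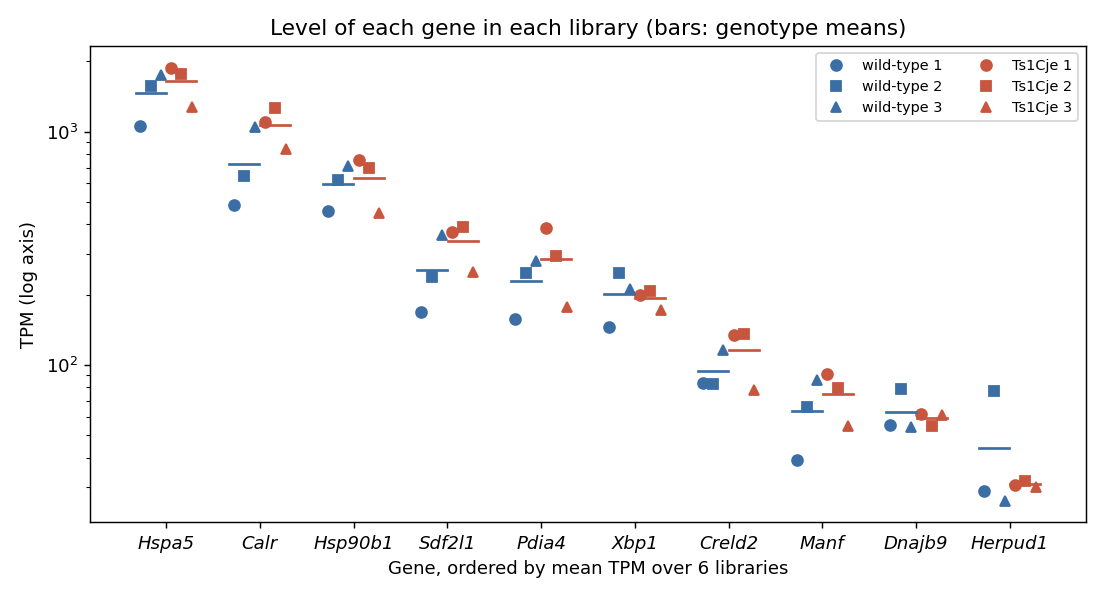
Level of each of the 10 genes in TPM on a log axis, with 1 point per library (blue wild-type, red Ts1Cje, shape for the replicate) and bars for the genotype means. Hspa5 has the highest mean, 1552 TPM, and Herpud1 the lowest, 37.4 TPM, and points of both genotypes overlap for every gene.

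No member differed between the genotypes beyond the spread of the libraries. Over all 13821 genes 1 passed edgeR's quasi-likelihood test at an adjusted p under 0.05, a background of 0.00724%, and 0 of the 10 members did. The smallest adjusted p of a member was 0.792, for Calr. At an unadjusted p under 0.05 there were 0 of 10 members, against 5.79% of all genes, and groups that did not overlap were found for 0 of 10 members, against 12.1% of all genes. DESeq2 called 0 of 10 (background 0.406%) and limma-voom 0 of 10 (background 0.00724%). The median log2 fold change of the members was 0.21, with 7 positive and 3 negative values, beside a median of -0.0075 over all genes tested. Without wild-type replicate 1 the members' median was -0.011. In bulk RNA, fewer cells of a type and less RNA per cell cannot be told apart.

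Among the chaperones of the lumen, Calr had the largest difference. Its level was 476, 621 and 984 CPM in wild-type and 1023, 1185 and 876 CPM in Ts1Cje replicates 1 to 3. Wild-type replicates 1 and 2 lay below every Ts1Cje library, while wild-type replicate 3 lay above Ts1Cje replicate 3. The log2 fold change was 0.57 ± 0.28 (SE; unadjusted p = 0.0783, adjusted p = 0.792, edgeR), a fold of 1.48. It was 0.35 without wild-type replicate 1 and 0.91 without wild-type replicate 3, where the adjusted p was 0.154.

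Hspa5 was at 1534, 2214 and 2430 CPM in wild-type and 2572, 2424 and 1941 CPM in Ts1Cje replicates 1 to 3. The lowest library was wild-type replicate 1, at 1534 CPM, and the next lowest was Ts1Cje replicate 3, at 1941 CPM. The log2 fold change was 0.17 ± 0.23 (SE; adjusted p = 0.897). Hsp90b1, which folds integrins and Toll-like receptors, was at 631, 834 and 945 CPM in wild-type and 989, 909 and 650 CPM in Ts1Cje. Its lowest libraries were wild-type replicate 1 and Ts1Cje replicate 3, and the difference was 0.08 ± 0.23 (SE; adjusted p = 0.951). Without wild-type replicate 1 the values of Hspa5 and Hsp90b1 were -0.015 and -0.076.

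Pdia4, which forms and reshuffles disulfide bonds, was at 130, 198 and 219 CPM in wild-type and 300, 229 and 153 CPM in Ts1Cje replicates 1 to 3. The spread inside each genotype was wider than the difference between them, 0.32 ± 0.29 on the log2 scale (SE; adjusted p = 0.838). Leaving out wild-type replicate 1 gave 0.11 and leaving out Ts1Cje replicate 1 gave 0.067, while leaving out wild-type replicate 3 gave 0.47 and leaving out Ts1Cje replicate 3 gave 0.53. Creld2 was at 39.2, 37.5 and 52.0 CPM in wild-type and 59.3, 60.3 and 38.4 CPM in Ts1Cje. Here Ts1Cje replicates 1 and 2 lay above all wild-type libraries and replicate 3 among them, with a log2 fold change of 0.30 ± 0.22 (SE; adjusted p = 0.827), and leaving out each library in turn gave 0.19 (without Ts1Cje replicate 2) to 0.47 (without Ts1Cje replicate 3).

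The partners of BiP had values of both signs. Sdf2l1, which assists BiP and is known for a sharp response to ER stress, was at 63.6, 87.6 and 131 CPM in wild-type and 133, 141 and 100 CPM in Ts1Cje replicates 1 to 3. As for Calr, only wild-type replicate 3 reached into the Ts1Cje range, and the log2 fold change was 0.41 ± 0.27 (SE; adjusted p = 0.813). It was 0.18 without wild-type replicate 1 and 0.73 without wild-type replicate 3. Manf, which holds BiP bound to its clients, was at 47.1, 77.1 and 99.0 CPM in wild-type and 104, 90.7 and 69.7 CPM in Ts1Cje, a difference of 0.25 ± 0.28 (SE; adjusted p = 0.872) that was -0.0070 without wild-type replicate 1. Dnajb9, which recruits BiP to IRE1 and to misfolded clients, was at 48.4, 67.0 and 45.1 CPM in wild-type and 50.9, 45.3 and 56.2 CPM in Ts1Cje, with -0.08 ± 0.19 (SE; adjusted p = 0.947).

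Without Ts1Cje replicate 3, groups did not overlap for 4 of 10 members, Calr, Pdia4, Sdf2l1 and Creld2, all higher in Ts1Cje, where 21.3% of all genes did not overlap. Without wild-type replicate 3 this held for Calr and Sdf2l1 (background 35.6%), and the same 2 genes had an unadjusted p under 0.05, of 0.0041 and 0.0133, against 16.1% of all genes. Without wild-type replicate 1 it held for Xbp1, lower in Ts1Cje (background 19.8%). With each library left out in turn, 0 members passed edgeR over all genes.

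**Figure D2:**
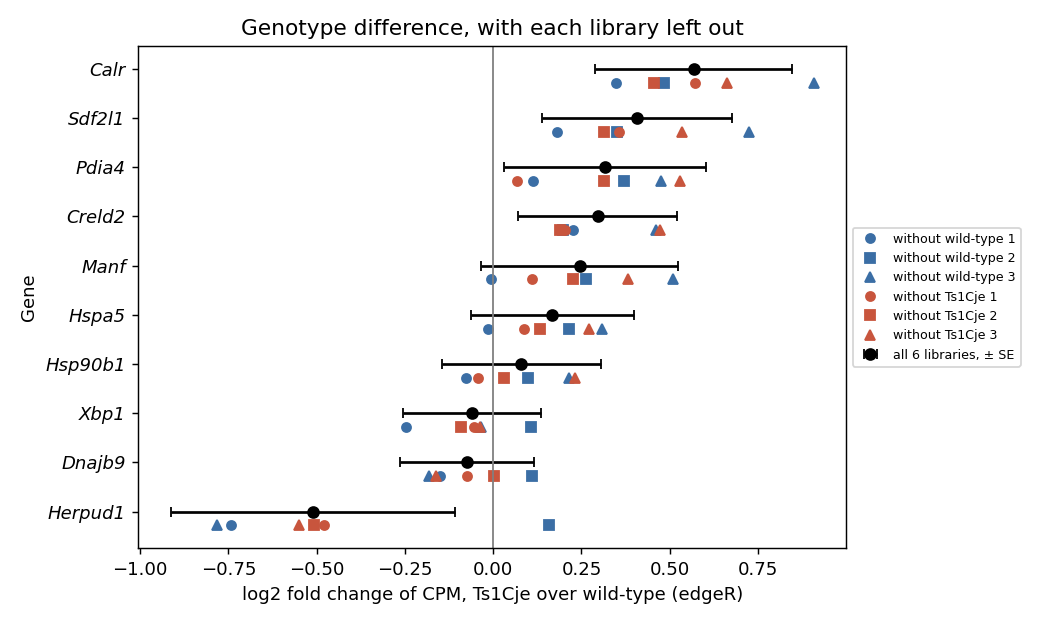
Log2 fold change of CPM, Ts1Cje over wild-type, for each gene with all 6 libraries (black, ± SE) and with each library left out in turn (coloured marks). Calr is highest at 0.57, and the mark of Herpud1 without wild-type replicate 2 sits at 0.16, to the right of zero, while its value with all libraries is -0.51.

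Herpud1, the member of the degradation machinery, stood out in a single library. It was at 22.9, 60.0 and 20.0 CPM in wild-type replicates 1 to 3 and at 23.0, 24.0 and 25.1 CPM in Ts1Cje. Wild-type replicate 2 was 2.39 times the next highest library, and the 3 Ts1Cje libraries lay just above wild-type replicates 1 and 3. The log2 fold change was -0.51 ± 0.40 (SE; adjusted p = 0.831) with all libraries and 0.16 without wild-type replicate 2. Xbp1 was at 161, 268 and 225 CPM in wild-type and 208, 219 and 201 CPM in Ts1Cje replicates 1 to 3. The wild-type libraries enclosed the Ts1Cje libraries, whose SD was 8.68 CPM against 53.9 in wild-type, and the log2 fold change was -0.06 ± 0.19 (SE; adjusted p = 0.962).

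The 10 genes did not all vary alike across the libraries. Hspa5, Hsp90b1, Manf, Pdia4, Calr, Sdf2l1 and Creld2, the 7 genes with a positive fold change, were grouped after their values were seen. Their median deviation from the gene mean, in log2 CPM, was -0.60, -0.03 and 0.22 for wild-type replicates 1 to 3, and 0.34, 0.21 and -0.17 for the Ts1Cje replicates. Wild-type replicate 1 had the lowest median, followed by Ts1Cje replicate 3. The genes differed in the latter, where Calr lay above its own mean (0.09) and Pdia4 was at -0.37. For Calr, Sdf2l1 and Creld2 wild-type replicate 2 was lower than Ts1Cje replicate 3. Wild-type replicate 1 was the lowest library for 7 of the 10 members, against 26.0% of all genes tested, and was the highest for 0 of 10, against 26.1%. Lyz2 and the sum of the macrophage markers, of which Lyz2 is a large part, were highest in wild-type replicate 1 (17962 CPM summed) and Ts1Cje replicate 3 (18010 CPM), and lowest in wild-type replicate 3 (7994 CPM) and Ts1Cje replicate 1 (9302 CPM). Some other markers of the list shared part of that order and some did not. Cd68 was likewise highest in Ts1Cje replicate 3 (3132 CPM) and wild-type replicate 1 (2794 CPM). Mertk was at 352 CPM in wild-type replicate 1 and 249 CPM in Ts1Cje replicate 3. It was at 153 CPM in wild-type replicate 3 and 140 CPM in Ts1Cje replicate 1. Itgam was lowest in wild-type replicate 1 (29.4 CPM), and Ptprc, Fcgr1 and Cx3cr1 were lowest in Ts1Cje replicate 3 (271, 145 and 4.53 CPM). The part of these marker levels in the chaperone values was not tested.

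Closeness was measured as the root mean square difference of the centred log2 CPM over the 6 libraries. Hspa5 and Hsp90b1 were the closest pair of members, at 0.090, followed by Calr and Sdf2l1 at 0.105. The ratio of Hsp90b1 to Hspa5 in TPM was 0.432, 0.395 and 0.408 for wild-type replicates 1 to 3, and 0.403, 0.393 and 0.351 for the Ts1Cje replicates. The ratio of Calr to Hspa5 was 0.456, 0.412 and 0.594 for wild-type, and 0.584, 0.718 and 0.663 for Ts1Cje. Calr was thus higher relative to Hspa5 in Ts1Cje replicates 2 and 3 than in any wild-type library, and Ts1Cje replicate 1 lay just under wild-type replicate 3. Herpud1 was the farthest from Hspa5, at 0.580, with 89.3% of 8686 other genes nearer. Manf was at 0.139, with 2.35% of those genes nearer, and Pdia4 at 0.176 (6.62%). Xbp1, outside the group of 7, was at 0.186 (8.31%). Sdf2l1 at 0.201 (11.2%), Creld2 at 0.204 (11.8%) and Calr at 0.283 (33.7%) were farther. Dnajb9 was at 0.338 (50.5%). Distance to Hspa5 thus did not separate the 7 genes from the others. The 5 genes outside the members nearest to Hspa5 were Anapc5, a subunit of the anaphase-promoting complex, at 0.049, Got2, a mitochondrial aminotransferase, at 0.053, Tada2a, a chromatin adaptor, at 0.053, Nup85, a nuclear pore protein, at 0.063 and Gtf2e2, a general transcription factor, at 0.065. They had log2 fold changes of 0.16 to 0.27, and the median distance over the 8686 genes was 0.336.

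**Figure D3:**
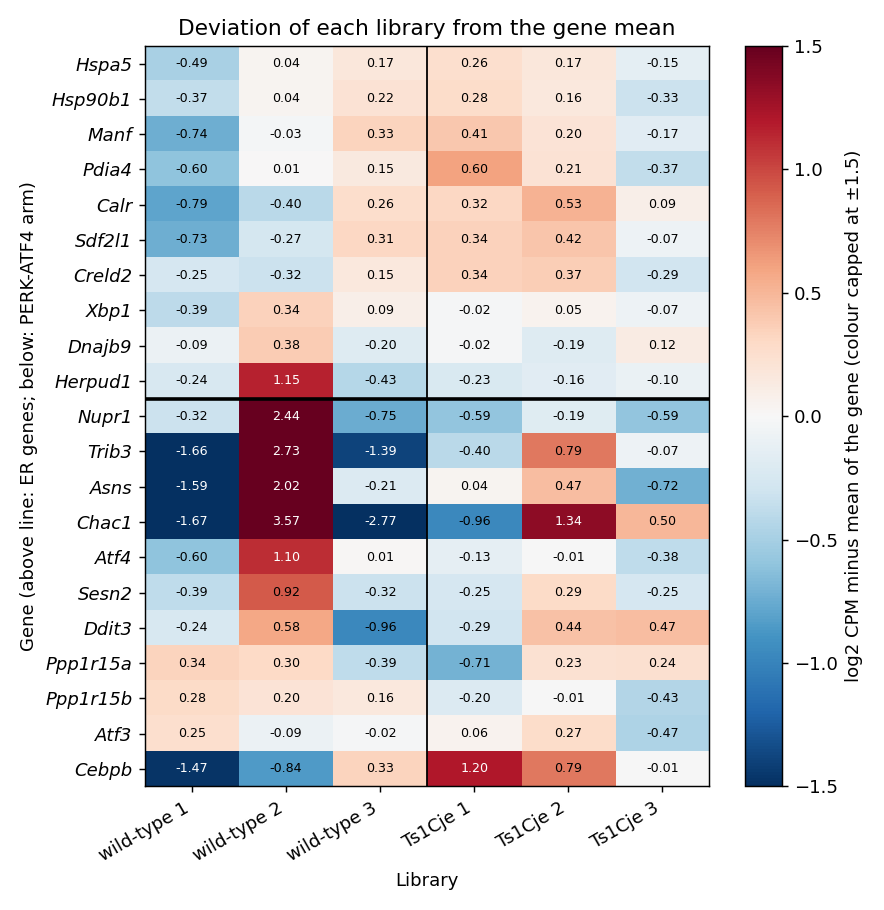
Deviation of log2 CPM from the gene's mean in each library (columns, wild-type left and Ts1Cje right of the line) for the 10 genes above the heavy line and 11 genes of the PERK-ATF4 arm below it. Wild-type replicate 1 is low for the chaperones (-0.49 for Hspa5, -0.79 for Calr), and wild-type replicate 2 is high for Herpud1 (1.15), Atf4 (1.10), Asns (2.02) and Trib3 (2.73).

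Most genes listed as the PERK-ATF4 arm were highest in the same library as Herpud1. PERK activity was not measured, and the cause of these values was not tested. Wild-type replicate 2 was the highest library for 7 of 11 genes of the arm, against 16.2% of all genes tested, and also for Herpud1, Xbp1 and Dnajb9. Atf4, the transcription factor of the arm, was at 36.7, 120 and 56.2 CPM in wild-type and 50.9, 55.3 and 42.9 CPM in Ts1Cje replicates 1 to 3. Asns, asparagine synthetase and a target of ATF4, was at 11.9, 147 and 31.3 CPM in wild-type and 37.1, 50.01 and 22.0 CPM in Ts1Cje. In both genes wild-type replicate 2 was the high library and wild-type replicate 1 the lowest. Trib3, a pseudokinase induced by ATF4, had 33.9 CPM in wild-type replicate 2 and 1.54 to 8.75 CPM elsewhere. Nupr1, a stress-induced nuclear protein, had 34.1 CPM there and 3.68 to 5.47 CPM elsewhere. Ddit3, which encodes CHOP, was less uneven, at 47.4 CPM there and 16.3 to 44.0 CPM in the other libraries.

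Between the genotypes, 0 of the 11 genes of the arm passed, 2 values were positive and 9 negative, and the median log2 fold change was -0.42. Without wild-type replicate 2 that median was 0.30. With all libraries it was -0.15 by limma-voom and -0.14 with the replicate number as a block, each with 4 positive and 7 negative values. Of the 4 genes of the arm with the smallest p, Ppp1r15b, a subunit of the phosphatase that restarts translation, was at 98.2, 92.7 and 90.0 CPM in wild-type and 70.0, 80.2 and 59.6 CPM in Ts1Cje. All Ts1Cje libraries lay below all wild-type libraries, with -0.42 ± 0.15 (SE; unadjusted p = 0.0228, adjusted p = 0.792, edgeR). Cebpb, a transcription factor, had 1.23 ± 0.54, Nupr1 -1.64 ± 0.80 and Atf4 -0.51 ± 0.39 (SE), none past the threshold.

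Around the members, 7 lists of related genes with 112 entries were read from the same fit. Of the 110 tested, 55 had a positive value, 0 passed edgeR, 0 DESeq2 and 0 limma-voom. At an unadjusted p under 0.05 there was 1, Ppp1r15b, which is 0.909% where all genes gave 5.79%. No overlap between the genotypes was seen for 16 genes, 10 of them higher and 6 lower in Ts1Cje, or 14.5%, where all genes gave 12.1%.

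Among the sensors and their partners, 6 values were positive and 7 negative of 13, with a median of -0.018. For 6 of these 13 genes the groups did not overlap in CPM, 3 in each direction, against 12.1% of all genes tested. With RLE factors 2 were higher and 3 lower in Ts1Cje. In TPM 1 was higher and 3 were lower. Nfya and Nfyb, subunits of the NF-Y factor that binds the CCAAT block of the elements shown above, were lower in 3 of 3 Ts1Cje libraries. Nfya was at 16.8, 15.3 and 17.1 CPM in wild-type and 13.3, 12.4 and 10.7 CPM in Ts1Cje, with -0.43 ± 0.19 (SE; adjusted p = 0.792), and Nfyb had -0.33 ± 0.19. Nfyc, the other subunit, had 0.14 ± 0.23 with overlapping groups. Mbtps1, the protease that makes the first cut in ATF6, was higher in 3 of 3 Ts1Cje libraries, at 92.2, 83.0 and 92.8 CPM in wild-type and 103, 113 and 107 CPM in Ts1Cje, with 0.27 ± 0.12 (SE; adjusted p = 0.792). Eif2ak3, which encodes PERK, had -0.35 ± 0.19 (SE), with overlapping groups. Directions thus differed inside the list, and no value passed over all genes.

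The other chaperones and oxidoreductases of the ER gave 16 positive and 11 negative values of 27, with a median of 0.058. Uggt1, which tags misfolded glycoproteins for another round with calreticulin and calnexin, was lower in 3 of 3 Ts1Cje libraries, at 203, 174 and 224 CPM in wild-type and 166, 159 and 162 CPM in Ts1Cje (-0.30 ± 0.14, SE). Dnajc3 had 0.35 ± 0.18, Txndc5, a thioredoxin-like isomerase, -0.21 ± 0.13 and Ero1lb, an oxidase that recharges disulfide isomerases, -0.31 ± 0.20 (SE), each with overlapping groups. In ER-associated degradation 13 of 19 tested values were positive, with a median of 0.10. Among the genes with small p values there were Nploc4, a cofactor of the p97 unfoldase, at 0.30 ± 0.16, Ube2g2, a ubiquitin-conjugating enzyme, at 0.36 ± 0.21 and Derl2, a channel protein, at 0.14 ± 0.12 (SE). Derl3 was not tested, at 0 to 12 counts per library.

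Genes of entry into the ER and glycosylation lay close to zero, with a median of -0.049 over 22 genes and values from -0.25 to 0.27. Sec11c, of the signal peptidase, had 0.27 ± 0.17, Sec61g, of the translocation channel, -0.25 ± 0.17, Spcs2, also of the signal peptidase, -0.22 ± 0.15 and Ssr4, of the translocon-associated complex, 0.17 ± 0.13 (SE). Export and retrieval genes had a median of -0.0042 over 9 tested. Kdelr1, a receptor that returns escaped chaperones such as BiP to the ER, was at 95.8, 88.9 and 72.3 CPM in wild-type and 69.8, 71.1 and 67.6 CPM in Ts1Cje, lower in 3 of 3 Ts1Cje libraries (-0.30 ± 0.15, SE; adjusted p = 0.792). Sec23b, a coat protein of export vesicles, had 0.27 ± 0.14, higher in 3 of 3, while Sec13 had 0.14 ± 0.13 and Lman1, a cargo receptor, -0.13 ± 0.13 (SE). Kdelr3 was not tested, at 2 to 18 counts.

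For comparison outside the ER, chaperones of the cytosol and mitochondria had 7 positive values of 9 and a median of 0.18, near the 0.21 of the ER members. Hspd1 and Hspe1, the mitochondrial chaperonin pair, had 0.35 ± 0.16 and 0.26 ± 0.13 (SE), Hsph1 0.35 ± 0.19 and Hspa8 0.18 ± 0.18. In CPM the first pair and Hspa8 were higher in 3 of 3 Ts1Cje libraries, which is 3 of 9 genes against 12.1% of all genes tested. For Hspa8 the margin was small, 1749 CPM in Ts1Cje replicate 2 over 1746 CPM in wild-type replicate 3. With RLE factors 2 genes of the list were separated, and in TPM 1 was. None passed (smallest adjusted p = 0.792, edgeR). The difference between this list and the ER members was not tested.

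**Figure D4:**
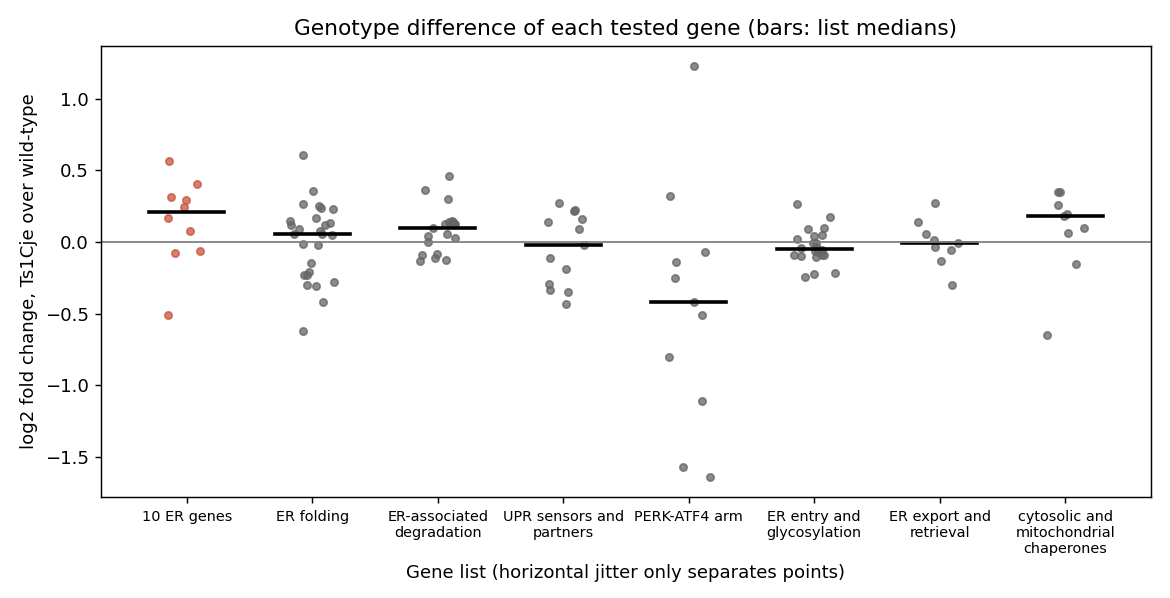
Log2 fold change of CPM, Ts1Cje over wild-type, of each tested gene (points) in the 10 ER genes and 7 related lists, with bars for the medians. Medians lie between -0.42 (PERK-ATF4 arm) and 0.21 (the 10 ER genes), and the PERK-ATF4 arm has the widest range, from -1.64 to 1.23.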

How the data were processed

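Libraries were prepared with the SMART-seq HT Plus kit, per the labels' protocols. FastQC 0.11.7, Trimmomatic 0.38, HISAT2 2.1.0, featureCounts 1.6.3 and mm10 are named in the submitters' processing notes. The strand and multi-mapping settings of the counting are not given in the sources used here. Per gene, raw counts and TPM were deposited by the authors, with 1 column per library. Apart from a scaling factor for each library, TPM were proportional to the deposited counts within each gene. This was checked on 3766 genes with at least 1000 counts in every library.

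Counts were tested with edgeR 4.0.16 in R 4.3.3: filterByExpr (count minimum 10, total minimum 15), TMM factors, genotype as the only term, quasi-likelihood test and Benjamini-Hochberg adjustment over 13821 genes at 0.05. The SE is the log2 fold change divided by the root of F. Log2 CPM use a prior count of 2. Functions were tested on simulated data. Symbols were used as the tables give them; of the listed symbols 1, Ddit3, stood on several rows, and the row with most counts was used. The members and lists were chosen with earlier results of these data known. Named genes are the members, the 4 genes of each list with the smallest p, the 5 nearest to Hspa5 among genes with a mean log2 CPM above 3, and the highest marker of each cell type with Csf1r and Spi1; others were chosen after their values were seen, among them Asns, Trib3, Ddit3, Nfyc, Canx, Pdia6, Syvn1, Itgam, Ptprc, Fcgr1 and Cx3cr1. Some genes that this rule or the marker lists hold are not reported here. Protein sequences were not used here. Alternatives were RLE and upper-quartile factors, no filter, a count minimum of 50, DESeq2 1.42.0, limma-voom (limma 3.58.1), limma on log2(TPM + 1) and log2(TPM + 0.1), a block for the replicate number, and fits that each omit a library. PCR reads without molecular identifiers are not independent molecules.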

Additional observations from a re-analysis of the deposited data

How the results depend on the processing

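Under 16 alternatives 0 of 10 members passed. The members' median log2 fold change was 0.21 in the main fit. It ran from -0.011 (without wild-type replicate 1) to 0.38 (without wild-type replicate 3). All values stayed within 1 SD (0.272) of its library spread. That SD is larger than the median itself, so a loss of the difference would also have stayed within it. Of 160 member values under the alternatives, 152 kept their sign, and the adjusted p ranged from 0.154 to 0.9995. The 8 that turned came from leaving out a library. An unadjusted p under 0.05 (edgeR) was found for 3 values, Calr without a filter and Calr and Sdf2l1 without wild-type replicate 3. In the latter fit 16.1% of all genes had such a p. Without a filter 714 genes were higher and 649 lower at that limit, of 24506 tested. With each library left out in turn the values ran from -0.015 to 0.31 for Hspa5, -0.076 to 0.23 for Hsp90b1, -0.0070 to 0.51 for Manf, -0.18 to 0.11 for Dnajb9, -0.78 to 0.16 for Herpud1 and -0.25 to 0.11 for Xbp1. In these fits groups did not overlap for 0 to 4 members. The count was 4 without Ts1Cje replicate 3 (21.3% of all genes), 2 without wild-type replicate 3 (35.6%) and 1 without wild-type replicate 1 (19.8%). Calr (0.35 to 0.91), Pdia4 (0.067 to 0.53), Sdf2l1 (0.18 to 0.73) and Creld2 (0.19 to 0.47) were positive under all 16, with these ranges when a library was left out. Over all genes 1 passed in the edgeR fit, 3 without a filter, 56 by DESeq2, 4 by limma on log2(TPM + 0.1) and 1 to 6 with a library left out. The causes were not tested, beyond the samples removed.

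With the replicate number as a block 0 genes passed, 388 higher and 246 lower at an unadjusted p under 0.05, and no member's sign changed. Deviations of libraries with the same number had correlations of -0.18, -0.05 and -0.06, and those with different numbers -0.11 to 0.17. Deviations were centred within groups of 3, so these values cannot decide whether the numbers pair the samples. Medians of the 7 lists were also run under the alternatives after seeing the data. The median of the PERK-ATF4 arm was -0.15 to -0.16 by limma on log2 TPM, against -0.42 in the edgeR fit. Beside that arm, those of export and retrieval (-0.090 without wild-type replicate 1), of sensors (-0.052 with upper-quartile factors) and of the cytosolic list (0.052 without wild-type replicate 2) moved by more than their spread.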
